A study of Danio rerio with 2 samples.

Results

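Acid-sensing ion channels (ASICs) are proton-gated sodium channels of the DEG/ENaC family, in which 3 subunits form 1 channel. In mammals they are found mostly in neurons, where a fall in extracellular pH opens them, and synaptic vesicles, which are acidic inside, are a source of protons at synapses. The subunit mix sets how strongly a channel responds to acid. The genes described here are all those whose symbol starts with *asic* followed by a digit in the deposited feature lists, 6 of 36351 genes (*asic1a*, *asic1b*, *asic1c*, *asic2*, *asic4a* and *asic4b*), followed across the neuron groups of both libraries. *asic1c* was chosen by its measured levels in these neuron groups, so they are given as a description with no test.

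The series holds 2 droplet libraries of EGFP-positive trunk cells, FAC-sorted from untreated zebrafish embryos at 48 h post fertilization and fixed in methanol. The embryos came from an incross of fish that carried *evx1i232/+* and *evx2sa140/+* together with *Tg(evx1:EGFP)SU2*, a transgene under *evx1* regulatory DNA, and embryos of every genotype were pooled. No cell carries a genotype label, and both libraries share all labels apart from their titles (1 title reads OtherGFP, the other AllGFP). *evx1* and *evx2* encode transcription factors of V0v spinal interneurons, which are excitatory in wild-type (WT) fish, and without both proteins the cells take on inhibitory transmitter genes.

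The libraries hold 4373 and 6223 cells, of which 3571 and 4556 passed the limits on UMIs (counted RNA molecules), detected genes and mitochondrial share, with medians of 3669 and 4333.5 UMIs per cell. Clusters were named from fixed marker genes, giving 3240 (90.7%) and 2961 (65.0%) neuron-like cells in 15 clusters. WT-like clusters had *evx2* and the glutamate transporter gene *slc17a6a*, and mutant-like clusters had the glycine or GABA transporter genes *slc6a5* or *slc6a1b* well above *slc17a6a*, with low *evx2*. Each kind was divided by markers such as *chrna2b* (group 1) and *scxa* (group 2). In libraries 1 and 2, there were 567 and 456 cells in WT-like group 1. WT-like group 2 had 652 and 711, while 261 and 173 were in mutant-like group 1 and the other mutant-like group had 319 and 204. A further cluster of 39 and 153 cells was inhibitory and low in *evx2*. Its 10 leading genes were *en1b*, *dmrt3a*, *foxd3* and *sst1.1*, which are genes of other spinal fates, and otherwise haemoglobin genes. Of these, *hbae1.1* was at 48.9 and 3669 CPM there, against 76.5 to 111 CPM in the other groups of library 2. A set of 6 clusters stayed unnamed. Among these, cluster 9 (116 and 149 cells), met the transmitter and subset rules of mutant-like group 1, with *slc6a5* at 1170 CPM, *slc17a6a* at 141 CPM and *evx2* at 50.4 CPM. It was left unnamed because *en1b*, a gene of another spinal interneuron type, was among its 10 leading genes, and results that turn on this choice are also given with cluster 9 counted in mutant-like group 1, an alternative added after seeing the data. Mutant-like group 1 was cluster 7 in both libraries, but most cells of the other groups came from different clusters in each library: 3 then 10 for WT-like group 1, 4 then 5 and 8 for WT-like group 2, and 6 then 11 for mutant-like group 2. Heat-shock genes led clusters 1, 4 and 6, which were made almost only of library 1 cells, and *hsp70l* was at 6146 CPM (the UMIs of a gene per 1000000 UMIs) in neuron-like cells of library 1 and 45.8 CPM in those of library 2. The libraries shared 3 barcodes.

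*asic1c* supplied most of the ASIC transcripts in these neurons. It had 1760 and 1893 UMIs in the neuron-like cells of libraries 1 and 2, 85.1% of the family's UMIs, and 96.0% of the 25792 genes with a UMI in these cells had fewer. *asic2*, whose mammalian counterpart forms mixed channels with ASIC1, had 207 and 246 UMIs. *asic1b* had 96 UMIs over both libraries, *asic1a* 64 and *asic4a* 27, and *asic4b* had no UMI in a neuron-like cell and 1 UMI among all cells of both libraries. UMIs are counted at the 3′ end, so each molecule counts once and CPM values were not divided by transcript length.

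The neuron-like cells stood well above the other sorted cells. *asic1c* was at 144.2 and 146.9 CPM in neuron-like cells of libraries 1 and 2, at 25.2 and 54.6 CPM in progenitor-like cells, and at 7.14 and 19.5 CPM in fibroblast-like cells, a type that should lack it. *asic2* was at 17.0 and 19.1 CPM in neuron-like cells, with 0 UMIs in the fibroblast-like cells of library 1 and 1 UMI in those of library 2. After every cell was thinned to 2000 UMIs, 22.8% and 22.3% of neuron-like cells held a UMI of *asic1c*, against 2.20% and 4.29% of fibroblast-like cells. Median depths were 3690 and 4355 UMIs in neuron-like and 5112 and 5362.5 UMIs in fibroblast-like cells, and the unthinned shares were 35.3% and 39.2% against 3.92% and 8.66%.

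**Figure D1:**
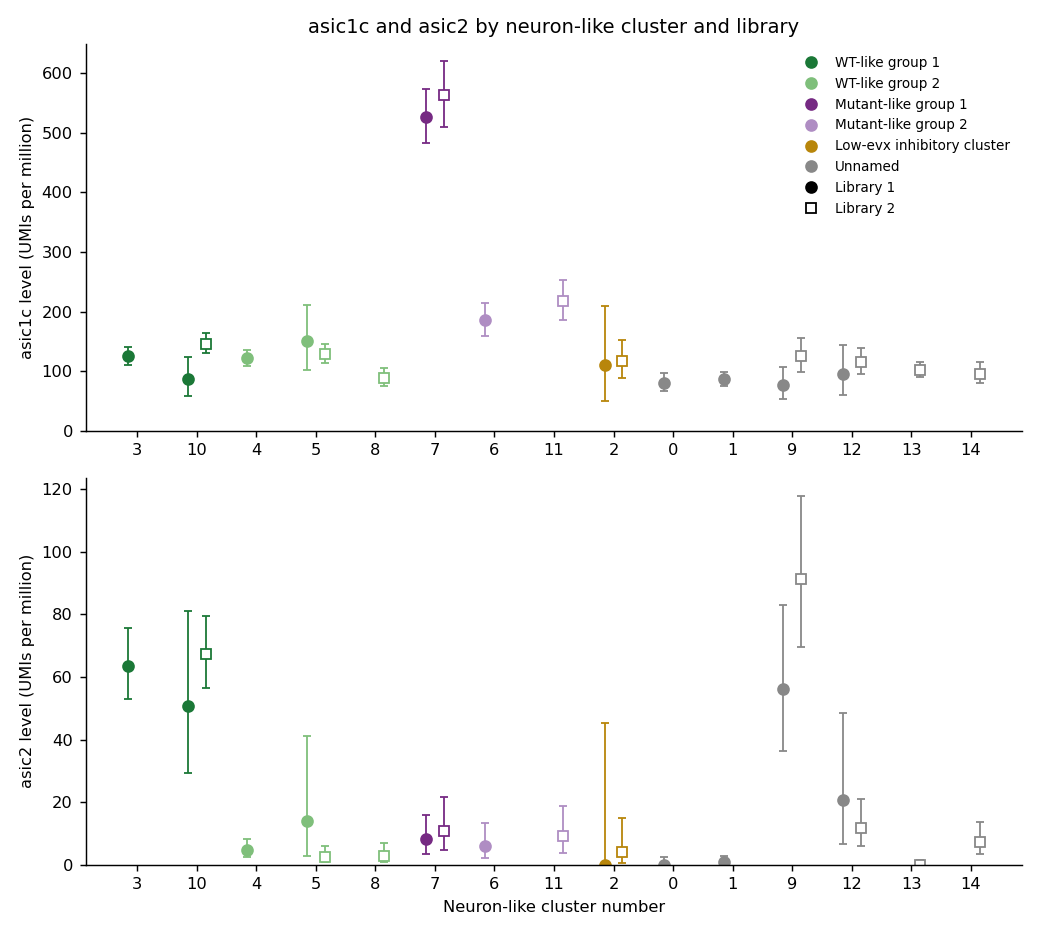
Levels of *asic1c* (upper panel) and *asic2* (lower panel) in CPM (vertical axes) in each neuron-like cluster (horizontal axis) with at least 20 cells in a library; filled circles are library 1, open squares library 2, bars are exact 95% Poisson intervals of the UMI count, and colours mark the groups. Cluster 7 stands apart for *asic1c* at 527 and 563 CPM, and *asic2* is highest in clusters 3, 9 and 10.

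*asic1c*, which encodes an ASIC1-type subunit of zebrafish (zASIC1.3), was highest in mutant-like group 1. Library 1 gave 527 CPM and library 2 gave 563 CPM, with a mean of 544.8 ± 25.7 CPM (SD, n = 2 libraries). In mutant-like group 2 it was 185 and 217 CPM, a mean of 201.4 ± 22.7. The 2 groups did not overlap, and each library put mutant-like group 1 above mutant-like group 2 by 2.84-fold and 2.59-fold.

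The remaining groups lay lower and close together. *asic1c* was at 119 and 146 CPM in WT-like group 1, at 123 and 112 CPM in WT-like group 2, and at 110 and 118 CPM in the inhibitory cluster low in *evx2*, where library 1 held only 9 UMIs. The unnamed clusters together were at 84.2 and 106 CPM. WT-like group 1 was below WT-like group 2 in library 1 (0.969-fold) and above it in library 2 (1.31-fold), so the order of these neighbours was not the same in both libraries. Mutant-like group 1 was 4.42-fold and 3.86-fold above WT-like group 1, and mutant-like group 2 was 1.51-fold and 1.95-fold above WT-like group 2. Every group was above the fibroblast-like cells of its library.

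Mutant-like group 1 is cluster 7 alone, so the values by cluster restate the same gap in the same cells and give no separate support. The median neuron-like cluster was at 110.1 CPM in library 1 (11 clusters) and 121.4 CPM in library 2 (10 clusters), and cluster 7 exceeded the next highest by 2.84-fold and 2.59-fold. The next highest were clusters 6 (186 CPM) and 11 (217 CPM), which form mutant-like group 2. The other clusters ranged from 76.4 to 150.0 CPM. The highest of them were cluster 5 in library 1, at 150.0 CPM from 59 cells, and WT-like cluster 10 in library 2, at 146 CPM. Cluster 10 was at 86.3 CPM in library 1, so its library difference was as wide as most differences among these clusters.

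The higher level of mutant-like group 1 came both from more cells with a UMI and from more UMIs in those cells. With 2000 UMIs per cell, 61.3% of its cells held *asic1c* in each library (exact 95% intervals 55.0% to 67.3% and 53.5% to 68.7%, which cover counting error only, as do all intervals here). The shares were 31.1% and 32.8% in mutant-like group 2, 20.0% and 22.1% in WT-like group 1, and 20.8% and 17.7% in WT-like group 2. Thinning dropped shallow cells: 8 and 5 from mutant-like group 1, 33 and 3 from mutant-like group 2, 16 and 0 from WT-like group 1, and 27 and 16 from WT-like group 2. Without thinning, 80.5% and 80.9% of mutant-like group 1 cells had a UMI.

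**Figure D2:**
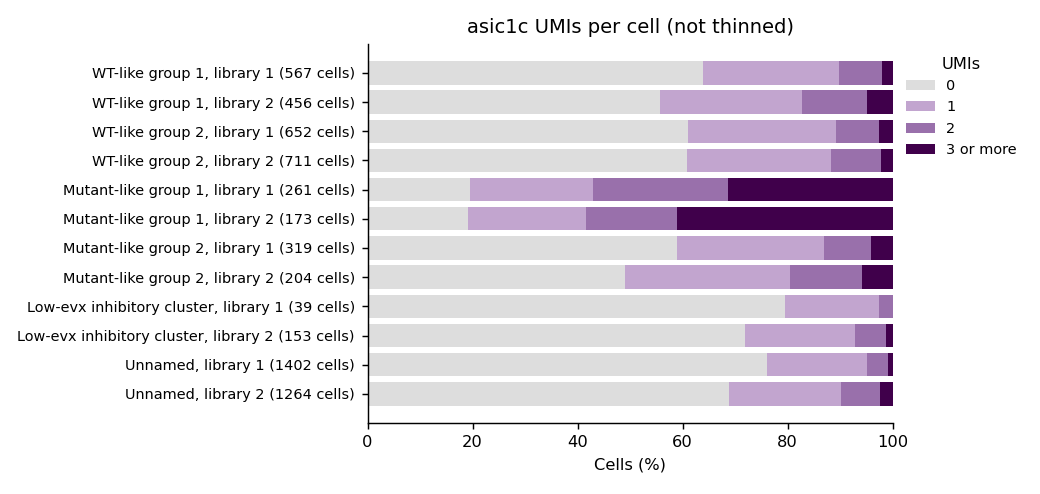
Percent of cells (horizontal axis) with 0, 1, 2 or at least 3 *asic1c* UMIs, unthinned, with 1 bar for each group and library. Cells with at least 3 UMIs make up 31.4% and 41.0% of mutant-like group 1 and at most 5.88% of any other group shown.

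The number of molecules per cell separated the groups as well. In mutant-like group 1, 82 of 261 cells (31.4%) and 71 of 173 cells (41.0%) held at least 3 *asic1c* UMIs, with up to 8 and 9 in 1 cell. Such cells were rarer in mutant-like group 2, at 4.08% and 5.88%. In WT-like group 1 they made up 2.12% and 4.82%, and in WT-like group 2 they made up 2.61% and 2.25%. In cells with any *asic1c*, mutant-like group 1 held a mean of 2.48 and 2.94 UMIs, and the other 3 groups 1.36 to 1.61. Median depth was 3816 and 4266 UMIs in mutant-like group 1 and 3083 and 3540.5 in mutant-like group 2. It was 4000 and 4651.5 UMIs in WT-like group 1 and 4346 and 4815 in WT-like group 2. The part of depth in these unthinned counts was not tested.

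Over 11 ways of filtering, clustering and grouping the cells, *asic1c* was highest in mutant-like group 1 in 22 of 22 library values. These settings regroup largely the same cells of the same 2 libraries, and *asic1c* was chosen by these levels. The count therefore describes the processing only and is no separate support. The ratio of mutant-like group 1 to WT-like group 1 ranged from 2.45 to 6.17 (median 4.50), and its ratio to mutant-like group 2 from 1.64 to 3.77. The lowest values came with cluster 9 counted in, where the level of mutant-like group 1 was 387 and 358 CPM. The ratio of mutant-like group 2 to WT-like group 2 ranged from 1.05 to 2.10 (median 1.43).

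*asic2* followed another order, with its highest group level in WT-like group 1. It was at 61.7 CPM (145 UMIs) and 67.0 CPM (141 UMIs) there, a mean of 64.3 ± 3.72 CPM (SD, n = 2 libraries). In mutant-like group 1 it was at 8.09 and 10.9 CPM (8 UMIs in each library), in mutant-like group 2 at 5.95 and 9.11 CPM (6 and 7 UMIs), and in WT-like group 2 at 5.70 and 2.65 CPM (16 and 9 UMIs). The 2 libraries of WT-like group 1 lay above every library of the other 3 groups, while the 2 mutant-like groups overlapped.

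Group sums were tested with edgeR's quasi-likelihood test, with p-values adjusted over all 8556 genes tested. Of the 6 ASIC genes only *asic2* and *asic1a* are tested members. *asic1b*, *asic4a* and *asic4b* did not pass the count filter, and *asic1c* was left untested for the reason given above. The filter looks at the level in single sums, and *asic1b* had more UMIs in neuron-like cells than *asic1a* (96 against 64). *asic1a* passed through library 2 of mutant-like group 1, at 12.3 CPM, and library 1 of the inhibitory cluster low in *evx2*. The latter level was 12.2 CPM from 1 UMI in 39 cells. The clusters of neuron-like cells were made from the same cells, without the ASIC genes, naming markers or genes of the lists below as features. Many genes therefore differ between groups, and the share of all tested genes that was called is given with each comparison. The tested genes leave out the 1938 features of that clustering and the naming markers other than ASIC genes. Below, "all genes" means all genes tested. ASIC and list genes were kept from being features however variable they were, so their shares are set against a background without the features.

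WT-like group 1 was above WT-like group 2 for both tested members. In this comparison 35.5% of all genes were called, 17.1% higher and 18.4% lower in group 1. *asic2* was higher by 3.86 on the log2 scale (SE 0.27, edgeR adjusted p = 4.52e-27), and it was called under 14 of 14 alternatives. In the main setting *asic2* passed the count filter only through WT-like group 1, where it is highest. Its calls in every comparison that includes that group therefore restate its level there. The alternatives refit or regroup largely the same cells of the same 2 libraries, so counts of calls over them are no separate support. *asic1a* was higher by 3.72 (SE 0.85, edgeR adjusted p = 0.000156), from 25 UMIs against 2. Its ratio of pooled CPM was 17.4, with a 95% counting interval of 4.34 to 152.

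In subset 1, mutant-like group 1, which is cluster 7 alone, held less *asic2* than WT-like group 1. The log2 change was -2.82 (SE 0.33, edgeR adjusted p = 7.27e-13), the CPM ratios being 7.63 and 6.13 in favour of WT-like group 1 within the libraries. It was 1 of the 2 members tested, and 12.1% of all genes were called here, 5.79% higher and 6.32% lower. *asic1a* changed by 0.60 (SE 0.61, edgeR adjusted p = 0.665) and was not called. With cluster 9 counted in mutant-like group 1, *asic2* there was at 23.0 and 48.6 CPM, and the log2 change was -0.88 (edgeR adjusted p = 0.00137). *asic1c*, not tested, lay the opposite way to *asic2* between these groups.

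In subset 2, neither tested member was called, where 27.3% of all genes were, 11.7% higher and 15.7% lower in mutant-like group 2. *asic2* had a log2 value of 0.78 (SE 0.53, edgeR adjusted p = 0.291) and *asic1a* one of 0.63 (SE 1.82, edgeR adjusted p = 0.836). The groups held 13 and 25 UMIs of *asic2*, and over 14 alternatives its value ran from -0.74 to 1.26 with no call, the lowest adjusted p being 0.0512.

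The change in *asic2* differed between the subsets. The difference of the 2 changes was -3.60 on the log2 scale (SE 0.70, edgeR adjusted p = 3.19e-05), with 14.6% of all genes called in that test, 8.03% positive and 6.59% negative. It was called under 14 of 14 alternatives, at -4.07 to -1.70. The difference includes WT-like group 1, so this call too restates the high *asic2* level there, and the alternatives are no separate support. The smallest value came with cluster 9 counted in mutant-like group 1 (edgeR adjusted p = 0.0474). *asic1a* had a value of -0.03 (edgeR adjusted p = 0.978). Its 4 groups held 25, 2, 15 and 1 UMIs, so this small value is not precise. Over both subsets together, where 23.2% of all genes were called (10.1% higher and 13.1% lower), *asic2* was lower in mutant-like cells by a log2 value of -1.02 (SE 0.32, edgeR adjusted p = 0.0107), and *asic1a* had a value of 0.62 (SE 1.05, edgeR adjusted p = 0.739). The first of these was called under 11 of 14 alternatives, and missed the threshold with DESeq2 (adjusted p = 0.0690), with 1000 variable genes for clustering (edgeR adjusted p = 0.0879) and with cluster 9 counted in, where the log2 value was -0.03 (edgeR adjusted p = 0.962).

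**Figure D3:**
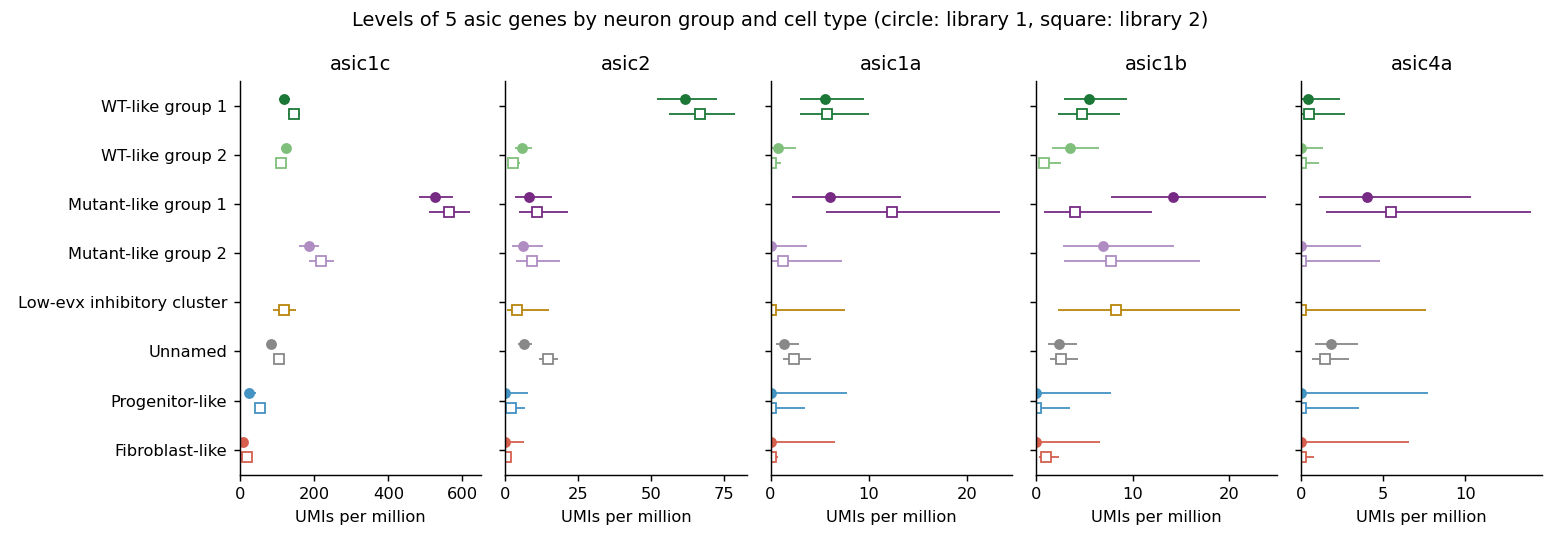
Level of each of the 5 ASIC genes with a UMI in neuron-like cells (CPM, horizontal axes, a separate scale for each gene) by neuron group and in 2 other cell types; circles are library 1, squares library 2, bars are exact 95% Poisson intervals of the UMI count, and the inhibitory cluster low in *evx2* is left out for library 1, where it held 39 cells. *asic1c* is highest in mutant-like group 1 and *asic2* in WT-like group 1, with *asic2* at 10.9 CPM or below in the other named groups.

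Among the WT-like and mutant-like groups, summed markers of some other neuron types were also highest in WT-like group 1. Cells outside these groups held more: motoneuron markers summed to 72.9 and 189 CPM in the unnamed clusters. Kolmer-Agduhr markers summed to 74.3 and 154 CPM there, and to 196 and 299 CPM in the inhibitory cluster low in *evx2*. The summed level of 8 motoneuron markers was 59.6 and 86.0 CPM in WT-like group 1, 14.6 and 25.6 in WT-like group 2, 5.05 and 5.47 in mutant-like group 1, and 15.9 and 3.91 in mutant-like group 2, with *isl1*, *isl2a* and *mnx2a* at 0 in both libraries of WT-like group 1. The 9 markers of Kolmer-Agduhr cells, which contact the cerebrospinal fluid, summed to 18.7 and 30.4 CPM in WT-like group 1 and to 3.97 to 10.4 CPM in the other 3 groups, with *sst1.1* and *urp2* at 0 in both libraries. The 9 mechanosensory markers summed to 55.3 and 62.2 CPM in WT-like group 1 and 39.4 and 60.1 CPM in mutant-like group 1, which overlap, with *p2rx3a* and *runx3* at 0 in WT-like group 1. *snap25a*, a synaptic vesicle fusion gene of maturing neurons, was at 3052 and 2920 CPM in WT-like group 1, 2242 and 2058 in mutant-like group 1, 1553 and 1254 in WT-like group 2, and 1831 and 1793 in mutant-like group 2. The part of these genes in the *asic2* difference was not tested.

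Across clusters *asic2* tracked *snap25a* more closely than *asic1c* did in library 1. Spearman's rho between *asic2* and *snap25a* was 0.811 over 11 clusters of library 1 and 0.636 over 10 clusters of library 2, and for *asic1c* it was 0.0909 and 0.648. These points share their library, cell depth and clustering, so the values are a description with no p. *asic2* had no UMI in clusters 0 and 13, where *snap25a* was lowest at 52.8 and 144.8 CPM, and 0.76 CPM (2 UMIs) in cluster 1, at 434.4 CPM of *snap25a*.

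*asic2* was as high in cluster 9, the unnamed cluster that met the rules of mutant-like group 1, as in WT-like group 1. Cluster 9, led by neuropeptide genes such as *pyya*, *penkb* and *tac1* and with *en1b* among its leading genes, held 56.1 CPM (25 UMIs) in library 1 and 91.2 CPM (59 UMIs) in library 2. That range overlaps the 50.6 to 67.2 CPM of clusters 3 and 10 of WT-like group 1. Cluster 7, the other cluster that met these transmitter and subset rules, was at 8.09 and 10.9 CPM. The 2 clusters differed in transporter genes, with *slc6a5* at 1170 CPM and *slc6a1b* at 168 CPM in cluster 9. In cluster 7 these were at 127 and 1234 CPM. *asic1c* in cluster 9 was at 76.4 and 125 CPM. Cluster 12, unnamed as well, held *asic2* at 20.8 and 11.7 CPM.

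The mix of ASIC transcripts went with these levels. *asic2* formed 32.1% of the family's UMIs in WT-like group 1 in library 1 (exact 95% interval 27.8% to 36.6%) and 29.9% in library 2 (25.8% to 34.3%). It formed 1.45% and 1.83% in mutant-like group 1. *asic1c* formed 61.9% and 65.2% in WT-like group 1 and at least 92.3% in the other 3 groups, in both libraries. The mix of mutant-like group 1 turns on leaving out cluster 9, which held 25 and 59 UMIs of *asic2* beside 34 and 81 of *asic1c*. Shares with cluster 9 counted in were not computed. Most single cells held too few UMIs to show this mix. Of thinned WT-like group 1 cells with *asic2*, 8 of 65 (12.3%) and 11 of 58 (19.0%) also held *asic1c*, against 21.0% and 22.6% of those without *asic2*.

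The 3 rarest genes with UMIs gave wide intervals. *asic1a* (zASIC1.2), an ASIC1-type gene, was at 5.53 and 5.70 CPM in WT-like group 1, 0.712 and 0 in WT-like group 2, 6.06 and 12.3 in mutant-like group 1, and 0 and 1.30 in mutant-like group 2. In cluster 9 it was at 13.5 and 13.9 CPM from 6 and 9 UMIs, which was the highest level among clusters with at least 20 cells in both libraries. *asic1b* (zASIC1.1), another ASIC1-type gene, was at 14.1 and 4.099 CPM in mutant-like group 1, from 14 and 3 UMIs, and at 5.53 and 4.75 CPM in WT-like group 1. The mutant-like group 2 values were 6.94 and 7.81 CPM and those of WT-like group 2 were 3.56 and 0.882 CPM, so the groups overlapped. *asic4a* (zASIC4.1), whose mammalian counterpart forms no proton-gated current by itself, had 4 UMIs in each library of mutant-like group 1 (4.04 and 5.47 CPM) and 1 UMI in each library of WT-like group 1. Its ratio between those groups was 10.4, with an interval of 2.07 to 100. Neither group 2 held an *asic4a* UMI.

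Genes whose level across clusters was most like that of *asic1c* were sought in the 6 clusters with at least 20 cells in both libraries, among 10146 genes, by the lower of the Pearson correlations of log2(CPM + 1) in the 2 libraries. The first 10 were *grin2cb* (0.946), *marcksl1b* (0.939), *rnf220a* (0.877), *BX571952.1* (0.870), *fam57ba* (0.859), *sema3b* (0.857), *ost4* (0.848), *CR677617.1* (0.840), *cxxc5a* (0.823) and *golga7ba* (0.821). They are ordered by a pattern that rests on cluster 7, where *grin2cb*, a subunit of the NMDA type of glutamate receptor, was at 44.5 and 42.4 CPM and at 0 to 1.91 CPM in the other 5 clusters. *marcksl1b* was at 4030 and 5105 CPM in cluster 7 and at 1727 to 2485 CPM in the others. *rnf220a*, a ubiquitin ligase gene, was at 564 and 589 CPM in cluster 7 and at 13.8 to 77.9 CPM in the rest. Of the 10, *grin2cb*, *rnf220a*, *BX571952.1*, *sema3b* and *CR677617.1* were among the features used for clustering. Clusters 6 and 11, which form mutant-like group 2, were next highest for *asic1c*. Each had under 20 cells in 1 library, so neither is among the 6 clusters used here. *sema3b* was among the leading genes of both.

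For *asic2* the first 5 were *CR936968.2* (0.967), *chrnb4* (0.946), *si:dkey-178e17.1* (0.941), *magi2a* (0.939) and *lrrc4ba* (0.926). *chrnb4*, a nicotinic acetylcholine receptor subunit, was at 113 and 114 CPM in cluster 10 and at 124 and 107 CPM in cluster 9, against 0 to 23.4 CPM in the other 4 clusters.

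Genes of families that act with ASICs, sense protons or are tied to proton supply were followed in 4 lists. Of 25 partners known from mammals 14 were tested, and each call in the 5 comparisons was in the higher direction. In mutant-like against WT-like cells 2 were called (14.3%, against 23.2% of all genes), in subset 1 3 (21.4% against 12.1%) and in subset 2 4 (28.6% against 27.3%). Between the WT-like groups 6 were called (42.9% against 35.5%), and 1 was for the difference between subsets (7.14% against 14.6%). Of all genes, 10.1%, 5.79%, 11.7%, 17.1% and 8.03% were called higher in these 5 comparisons, in that order. *camk2g1*, a CaM kinase gene (the mammalian kinase phosphorylates ASIC1), was at 339 and 342 CPM in WT-like group 1, 187 and 192 in WT-like group 2, 558 and 545 in mutant-like group 1, and 389 and 374 in mutant-like group 2. It rose by 0.80 over both subsets (SE 0.09, edgeR adjusted p = 7.62e-15). *prkcaa*, a protein kinase C gene, was at 38.2 CPM in mutant-like group 1 and 6.39 CPM in WT-like group 1, a log2 change of 2.49 (edgeR adjusted p = 4.82e-08). *prkcaa* passed the count filter only through mutant-like group 1, at 35.4 and 41.0 CPM, so this call restates its high level there. *pick1*, whose product binds ASIC1 and ASIC2 in mammals, rose in subset 2 by 1.04 (edgeR adjusted p = 0.00776), from 12.1 to 26.7 CPM. The median log2 change of the 14 was 0.32 in mutant-like against WT-like cells, and that of all tested genes was -0.01.

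Of 13 other proton sensors 1 was tested. *kcnk9*, an acid-inhibited potassium channel, had 151 UMIs in WT-like group 1, 3 in WT-like group 2, 2 in mutant-like group 1 and 0 in mutant-like group 2. It was lower in mutant-like group 1 (log2 -4.86, edgeR adjusted p = 3.49e-11), the pooled ratio being 29.2 with a counting interval of 7.94 to 243. WT-like group 1 exceeded WT-like group 2 by a ratio of 70.1 (interval 23.6 to 344, edgeR adjusted p = 1.62e-21). *kcnk9* passed the count filter only through WT-like group 1, at 41.7 and 25.2 CPM, so these calls restate its high level there. Its high group was that of *asic2*.

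Of 26 genes of proton and bicarbonate transporter families and of the carbonic anhydrase family, not all of whose members need be active enzymes, 10 were tested. In WT-like group 1 against WT-like group 2, 4 were higher and 3 lower, against 35.5% of all genes called. In mutant-like against WT-like cells 2 of the 10 were called (23.2% of all genes), in subset 1 3 (12.1%), in subset 2 2 (27.3%) and for the difference between subsets 2 (14.6%). *ca2*, a carbonic anhydrase gene, was at 67.7 and 184 CPM in mutant-like group 1, 60.9 and 93.1 in WT-like group 1, 56.5 and 67.7 in mutant-like group 2, and 11.8 and 9.41 in WT-like group 2. It rose in mutant-like cells by 0.61 in subset 1 (edgeR adjusted p = 0.0103) and by 2.53 in subset 2 (edgeR adjusted p = 5.17e-15), a difference of -1.93 (edgeR adjusted p = 8.67e-07), although its values overlapped between the groups of subset 1. *ca16b* fell in subset 1 (log2 -0.92) and so did *ca10a* (log2 -0.95).

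The vacuolar proton pump, which acidifies synaptic vesicles, moved together between the WT-like groups. Of 18 subunit genes tested out of 22, 15 (83.3%) were higher in WT-like group 1 and no call was lower, where 35.5% of all genes were called and 17.1% were higher, with a median log2 difference of 0.58 against -0.01 over all genes. *atp6v1b2* was at 165 and 130 CPM in WT-like group 1 and at 58.8 and 53.5 CPM in WT-like group 2 (log2 1.28, SE 0.14, edgeR adjusted p = 4e-14). *atp6ap2* and *atp6v1c1b* were higher by 0.82 and 0.74. *snap25a* was higher in the same group, as given above, and its part in this difference was not tested. In mutant-like against WT-like cells 4 of the 18 were called, all higher (22.2%). Of all genes in that comparison 23.2% were called, and 10.1% were called higher. *atp6v1b2* again led with 0.79 (edgeR adjusted p = 8.83e-10). The median there was 0.23. In subset 1 2 of 18 were called, both higher (11.1%), where 12.1% of all genes were called and 5.79% were higher. In subset 2 5 of 18 were called (27.8%), 4 higher and 1 lower, where 27.3% of all genes were called and 11.7% were higher. Counted in either direction, these shares were near those of all genes.

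**Figure D4:**
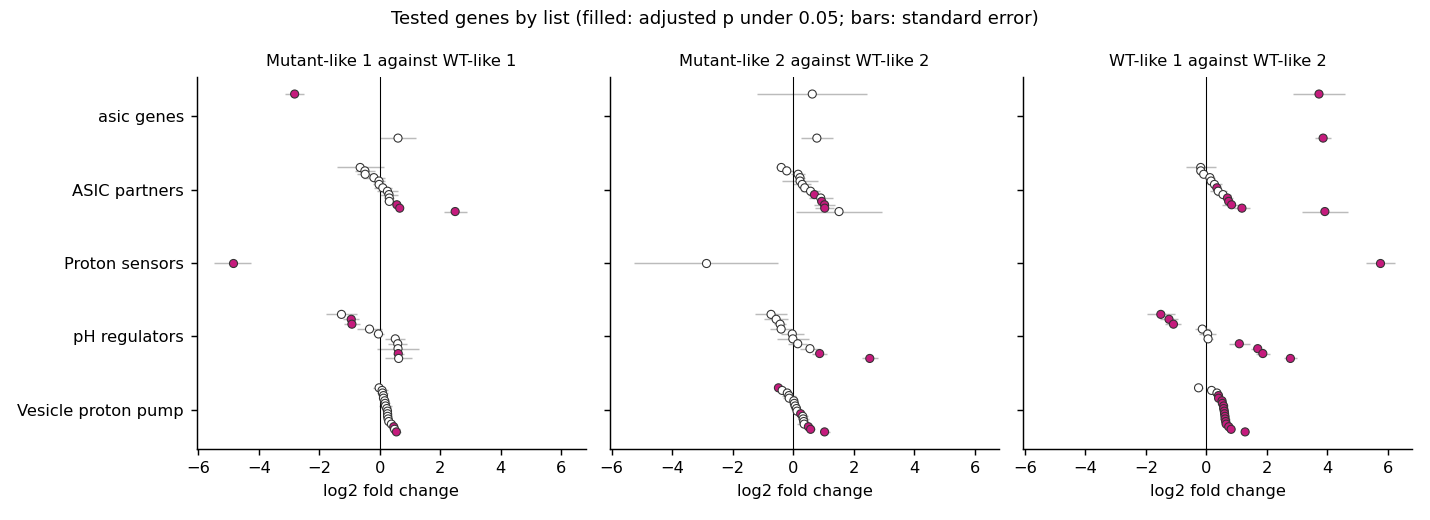
Fitted log2 fold change (horizontal axes) of the 2 tested ASIC genes and of each tested gene of the 4 lists in 3 comparisons of groups; each point is a gene, filled where the edgeR adjusted p was under 0.05, grey bars are standard errors, and the vertical line marks no change. In WT-like group 1 against WT-like group 2, 15 of 18 vacuolar pump genes are filled and lie to the right of the line.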

How the data were processed

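The deposited files hold raw counts of UMIs per gene and cell, made by the authors with Cell Ranger 4.0.0 on the Lawson Lab zebrafish annotation; the authors' own clustering was done in Partek and their cell labels were not used here. Cells were kept with 500 to 2500 genes, up to 12000 UMIs and at most 6% mitochondrial UMIs, and the upper limits were the only step taken against doublets after the sort. Clusters were rebuilt with scanpy 1.11.5 and igraph 0.11.9 (2000 variable genes, 30 components, 15 neighbours, Leiden resolution 1). The clustering of all cells, which gave the cell types, left out no genes. The later clustering of neuron-like cells was made without the ASIC genes, naming markers or list genes. Neuron-like clusters had 4 of 6 neuron markers at 100 CPM or more. Mutant-like clusters had *slc6a5* or *slc6a1b* at 100 CPM or more and at least 3 times *slc17a6a*, with *evx2* under 200 CPM. WT-like clusters had *evx2* at 100 CPM or more and *slc17a6a* above both. Subset 1 needed 3 of 6 markers at 10 CPM or more, and subset 2 all 3 of its markers, and a cluster that met both or neither stayed unnamed. So did any cluster with 1 of 14 genes of other spinal fates among its 10 leading genes, apart from the inhibitory cluster lowest in *evx1*, *evx2* and *slc17a6a*, which was kept as a group of its own. Differences from the study may come from these rebuilt names.

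Counts were summed per group and library, with at least 20 cells, and tested with edgeR 4.0.16 (TMM, filterByExpr, group plus library), with Benjamini-Hochberg adjustment over 8556 genes and a threshold of 0.05. Library 1 and library 2 are the replicates, each giving 1 sum to every group, so library was kept as a block. The block removes the difference that all groups share between the libraries. The p-values measure the remaining scatter of group levels between these 2 libraries, pooled over the groups with 4 residual degrees of freedom per gene. The spread of each gene was moderated toward a spread estimated over all tested genes. Very small p-values therefore rest largely on this borrowed spread. Nothing in the labels says that the libraries came from separate embryos, so a spread between embryos is not measured. DESeq2 1.42.0 was an alternative, with other filters, features, resolutions, seeds and thinning depths. Scripts were tested on simulated data. Named were all ASIC genes, the 10 and 5 genes most like *asic1c* and *asic2*, and the 3 largest called changes per list. Members, lists and naming thresholds were chosen with earlier results of these data known, thresholds after marker values were seen. *slc9a1b* appears under several identifiers and was not tested; *slc9a1a* and *otop1* were not analysed here, and 1 listed item is not reported here.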

Additional observations from a re-analysis of the deposited data

Results flagged for a closer look

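The change in *asic2* between mutant-like and WT-like cells differed between subset 1 and subset 2 by a tested log2 value of -3.60, which was -1.70 with cluster 9 counted in mutant-like group 1. The call restates the high *asic2* level of WT-like group 1, through which the gene passed the count filter.

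Cells outside the limits, which entered no comparison, also held ASIC transcripts. A cell can fall in more than 1 of these sets, and with no control samples each value is set only against the level of 3 counts. In 158 and 791 cells above the upper limits of libraries 1 and 2, *asic1c* was at 52.3 and 60.2 CPM and *asic2* at 8.54 and 10.2 CPM. *asic1a* was at 1.29 and 1.25 CPM and *asic4a* at 1.81 and 1.16 CPM there, and *asic1b* at 1.75 CPM in library 2. In 281 and 539 cells with too few genes, *asic1c* was at 23.6 and 6.94 CPM. In 496 and 564 cells above the mitochondrial limit, *asic1c* was at 148 and 114 CPM and *asic2* at 21.9 and 30.8 CPM, with *asic4a* at 2.50 CPM in library 1 and *asic1b* at 3.36 CPM in library 2.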

How the results depend on the processing

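The level of *asic1c* in mutant-like group 1 (main 544.8 CPM) was 372 CPM with cluster 9 counted in, and stayed within 1 SD under its other alternatives. The *asic2* level in WT-like group 1 was 69.8 CPM with a 10% mitochondrial limit, 77.5 without upper limits, 80.0 with ASIC genes and markers as features, 89.5 with libraries centred, 74.8 at resolution 1.5 and 90.4 with heat-shock genes left out. Thinned to 1000 UMIs, and unthinned, the share of cells was 40.3% and 80.7% for *asic1c* in mutant-like group 1 and 5.82% and 20.03% for *asic2* in WT-like group 1. Called genes in mutant-like against WT-like cells numbered 1986, against 1323 with DESeq2, 1126 with ASIC genes and markers as features, 1103 centred, 799 at resolution 1.5 and 1191 with heat-shock genes left out. With DESeq2 the counts were 610 in subset 1 (from 1036), 1440 in subset 2 (from 2340), 1799 between WT-like groups (from 3035) and 615 for the difference (from 1251). Without the replicate block they were 1147, 484, 1332, 1829 and 424. Leiden seed 2 gave 1500 in subset 2 and 636 for the difference, which was 2028 without upper limits and 1948 with heat-shock genes left out. Seed 2, heat-shock removal, cluster 9 counted in mutant-like group 1 and counting *COX3* as mitochondrial were chosen after seeing the data. Without 1 library no residual degrees of freedom are left, so counts of calls were not recomputed.

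Some uncalled values changed sign. *asic2* in subset 2 was -0.52 without upper limits, -0.082 with ASIC genes and markers as features and -0.74 centred. *asic1a* over both subsets was -0.25, -0.40 and -0.71 in those settings, and ran from -0.33 to 1.096 with 1 replicate left out. In subset 1 *asic1a* was -0.045 with features kept and -0.18 centred. In subset 2 it was -0.31 with a 10% mitochondrial limit, -0.95 without upper limits, -0.042 with 1000 variable genes, -0.75 with features kept, -1.23 centred, -0.064 with *COX3* counted, and -0.78 to 1.20 with 1 replicate left out. Its difference between subsets was 0.0071 with no count filter, 0.70 with a 10% limit, 1.40 without upper limits, 0.21 with 1000 genes, 0.71 with features kept, 1.05 centred, 0.24 with *COX3*, 0.23 with seed 2, 0.25 with cluster 9 counted in, and -0.21 to 0.89 with 1 replicate left out. The cause was not tested. *asic1a* held 1 to 25 UMIs in these groups.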
